A study of Mus musculus with 12 samples.

Results

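The 10 genes described here encode the transcription factors that build the heart and keep heart muscle cells in their differentiated state: Gata4, Gata6, Nkx2-5, Tbx5, Tbx20, Mef2a, Mef2c, Mef2d, Hand2 and Srf. They were taken by symbol from a table of transcript abundances in mouse myocardium in which the rows of each gene were summed, and they are 10 of its 33641 symbols. All 10 were above the low-value filter of 1 TPM in at least 3 of 12 hearts. TPM is a transcript's length-adjusted share of a library, scaled to a total of 1000000.

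The hearts came from 12 male wild-type C57BL/6 mice in 4 groups of 3. Mice had a sham operation or surgery that caused a myocardial infarction (MI), and later received vehicle or prednisone, a synthetic glucocorticoid that acts through the glucocorticoid receptor. Prednisone was injected into the abdomen at 1 mg/kg once a week at lights-on (ZT0) for 6 weeks, beginning 2 weeks after the operation. The stock was made in DMSO and diluted in PBS. Mice were near 10 weeks old when injected and near 16 weeks old in the sample annotation. Collection followed the last dose by 24 hours. The 4 groups share strain and sex, the labels name no transgene, and each library is 1 mouse. The labels call the tissue myocardium without saying whether scar, border or distant muscle was sampled.

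In cardiac muscle these proteins bind DNA side by side and switch on contractile, ion channel and metabolic genes together. GATA4 and GATA6 are zinc finger proteins, NKX2-5 is a homeodomain protein, TBX5 and TBX20 belong to the T-box family, HAND2 is a basic helix-loop-helix protein, and SRF and the MEF2 proteins share the MADS-box DNA-binding domain. GATA4, the MEF2 proteins and SRF are also known as mediators of the growth and fetal gene response of stressed heart muscle.

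Infarction with vehicle left the 10 genes without a call, where 16% of all genes were called. In infarcted hearts 5 of the 10 were lower with prednisone than with vehicle (the 3 MEF2 genes, Tbx20 and Gata6), at a background of 37.4% of genes called and 34.9% called lower, and Tbx20 and Gata6 lost the call after median-ratio rescaling, a scaling that brings the median of all genes close to 0. In infarcted hearts given prednisone, the mean of Mef2c was 39.4% of its mean in vehicle-treated sham hearts, and Mef2a was at 45.2%, Tbx20 at 56.1%, Mef2d at 57.4% and Gata6 at 59.8%. Nkx2-5 was at 101.4%, Srf at 101.3% and Gata4 at 103.4% on the same scale. In sham hearts given prednisone these 3 were at 119.4%, 132.7% and 119.2%, and in infarcted hearts given vehicle at 101.2%, 125.8% and 115.7%. Infarcted hearts given prednisone differ from vehicle-treated sham hearts in both surgery and drug, and that comparison was not fitted. The summed level of Gata4 hid opposite differences among its transcripts: a short transcript supplied 72.5% ± 6.91 (SD, n = 3) of Gata4 TPM in infarcted hearts given prednisone and 24.2% ± 2.79 (SD, n = 3) in infarcted hearts given vehicle. Prednisone gave no call among the 10 genes in sham hearts, where 0.114% of all genes were called.

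Promoter sequence is shown for Srf and Hand2, where CArG boxes and a GATA motif lie upstream of the start site, since the family is known for binding its own and each other's promoters. RefSeq promoter windows (build GRCm38.p6) were at hand for Mef2d, Mef2a, Hand2, Tbx20, Mef2c (3 start sites), Nkx2-5 and Srf; Gata4, Gata6 and Tbx5 had none in the table used. In the 250 bases before each start, both strands were searched for the CArG box bound by SRF, the MEF2 box, the GATA motif AGATAA, the NKX2-5 motif TNAAGTG, the T-box motif AGGTGT and the E-box CATCTG known for HAND2. These stretches read 5′ to 3′, and capitals mark the matched bases.
Srf, chr17:46556215-46556244, minus strand, 2 CArG boxes: CCATATAAGGagcggcctcgCCATAAAAGG
Hand2, chr8:57320799-57320828, plus strand, the GATA motif read on the opposite strand: cccccgttttaaTTATCTtatggttatgag
The Srf boxes begin at positions -82 and -62 from the start site, and a CArG box was found in 1.47% of 32851 promoter windows. The GATA motif upstream of Hand2 was found in 9.99% of windows, and the Hand2 window also held CATCTG at -246, present in 14.4%. The second Mef2c window held AGGTGT at -216 (11.8% of windows), and the third held CATCTG at -245. A stretch just after the start site in the second Mef2c window was not found in the annotated Mef2c transcripts, whereas every other window passed this check. Windows of Mef2d, Mef2a, Tbx20, Nkx2-5 and the first Mef2c start held none of these letters. TNAAGTG occurred in 10.1% of all windows and the MEF2 box in 2.92%. A match describes letters only, and no binding was measured.

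Each library sums to 1000000 TPM and carries no read depth, so precision rests on the spread between 3 mice. Between 11690 and 14307 genes reached 1 TPM per library, mitochondrially encoded genes took 21.6% to 42.0% of TPM, and vehicle-treated infarcted mouse 3 stood apart, with the most genes and a median gene level 0.74 above the sham vehicle mean on the log2(TPM + 1) scale (the other 11 libraries lay between -0.067 and 0.246). Genes annotated in a nuclear copy of mitochondrial DNA were assigned 15.3% to 20.3% of TPM in the MI prednisone libraries and 9.32% to 14.6% in the others. Whether these reads came from mitochondrial transcripts was not tested. All 10 cardiomyocyte markers were detected in every group, with summed levels of 26700 to 28480 TPM in sham vehicle, 27290 to 32010 in sham prednisone, 19060 to 25070 in MI vehicle and 27340 to 29390 in MI prednisone hearts. Skeletal muscle markers summed to at most 10.7 TPM. Atrial markers summed to 855 to 2512, 1999 to 2709, 2813 to 4122 and 4358 to 6191 TPM in the same order of groups. By group means, most of this sum was Nppa, also a gene of stressed ventricle, with means of 904, 1198, 2706 and 3319 TPM. Infarction with vehicle raised 1 of the 5 atrial markers and the list's median was -0.77, and Myl7 averaged 446, 565, 308 and 948 TPM.

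In vehicle-treated sham hearts the order of mean levels was Mef2d (44.2 TPM), Nkx2-5 (38.5), Gata4 (38.2), Mef2a (37.9), Srf (22.7), Hand2 (21.6), Mef2c (17.0), Gata6 (16.3), Tbx5 (10.8) and Tbx20 (9.58). Neighbours in this order overlapped across the 3 mice except Mef2d and Nkx2-5, Mef2a and Srf, and Gata6 and Tbx5. The 10 genes together made 238.2 to 298.6 TPM in the 9 libraries outside the MI prednisone group and 168.6 to 214.2 TPM within it.

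**Figure D1:**
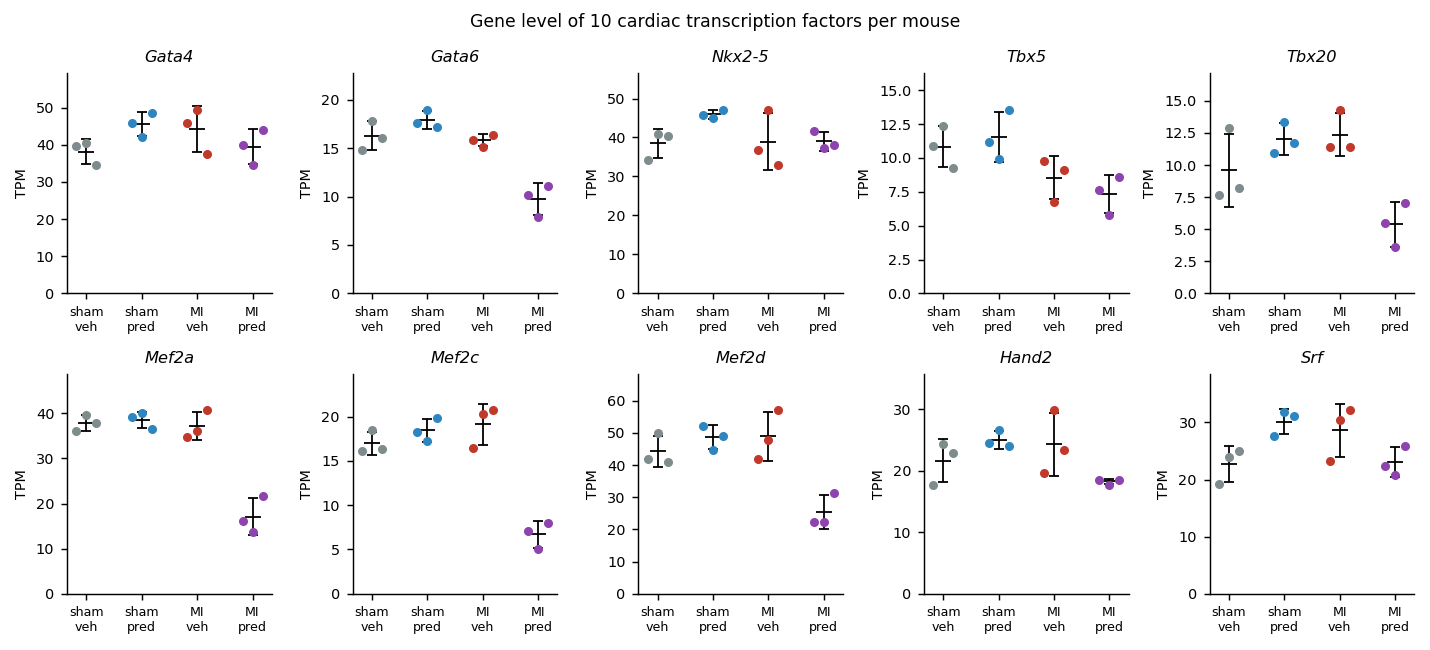
Gene level in TPM (linear axis from 0) of the 10 factors in each of 12 mice, with the mean and SD of each group of 3; veh is vehicle and pred is prednisone. All 3 MI prednisone points lie below the other 9 mice for Gata6, Tbx20, Mef2a, Mef2c and Mef2d, and within the range of the others for Gata4, Nkx2-5, Hand2 and Srf.

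Of the 2 GATA factors, Gata4 lies on the minus strand of chromosome 14 (63198922 to 63271692; GRCm38, GENCODE M21, as for all gene positions here) and is needed for heart tube formation and for the growth response of adult muscle. Its level was 39.5, 40.5 and 34.4 TPM with sham and vehicle, 46.0, 42.0 and 48.4 with sham and prednisone, 45.8, 49.4 and 37.4 with MI and vehicle and 39.9, 34.5 and 43.9 with MI and prednisone. Prednisone-treated sham hearts were above all vehicle-treated sham hearts, and every other pair of groups overlapped. The log2(TPM + 1) difference between prednisone and vehicle was -0.16 (SE 0.131) in infarcted hearts and 0.25 (SE 0.131) in sham hearts, and neither passed limma's test (adjusted p 0.357 and 1).

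Gata6, on the plus strand of chromosome 18 (11052064 to 11085635), acts together with Gata4 in heart development. It was at 14.9, 17.8 and 16.1 TPM with sham and vehicle, 17.6, 18.9 and 17.2 with sham and prednisone, 15.9, 15.2 and 16.4 with MI and vehicle and 10.1, 7.91 and 11.1 with MI and prednisone. Each of the last 3 values was below the other 9. Gata6 fell by 0.66 (SE 0.128) with prednisone in infarcted hearts (adjusted p 0.00366, limma with Benjamini-Hochberg adjustment over 13158 genes, as for every adjusted p on genes below). The call held in 12 of 16 alternatives and was lost after median-ratio rescaling (-0.24, adjusted p 0.316), with correction for transcript length, with or without the replicate block (-0.13, adjusted p 0.604, without it), and with only these 2 groups fitted (adjusted p 0.0642). The ratio of Gata4 to Gata6 was 3.94 to 4.37 in MI prednisone hearts and 2.14 to 3.26 in the other 9.

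The homeodomain factor Nkx2-5, on the minus strand of chromosome 17 (26838664 to 26845009), is among the earliest markers of cardiac fate and maintains conduction tissue. Its level was 34.2, 40.9 and 40.3 TPM with sham and vehicle, 45.8, 44.9 and 47.0 with sham and prednisone, 36.9, 47.1 and 32.9 with MI and vehicle and 41.8, 37.2 and 38.1 with MI and prednisone. The 3 sham prednisone hearts lay above both the sham vehicle and the MI prednisone hearts, with log2 differences of 0.25 (adjusted p 1) and -0.23 (adjusted p 0.261) that did not pass. In infarcted hearts prednisone and vehicle differed by 0.02 (SE 0.131).

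The T-box factor Tbx5, on the plus strand of chromosome 5 (119832668 to 119885219), is known for its role in atria, conduction tissue and limb. Its values were 10.9, 12.3 and 9.27 TPM with sham and vehicle, 11.2, 9.92 and 13.5 with sham and prednisone, 9.73, 6.73 and 9.14 with MI and vehicle and 7.62, 5.81 and 8.62 with MI and prednisone. Under prednisone, all infarcted hearts were below all sham hearts, and Tbx5 fell by 0.59 (SE 0.182; adjusted p 0.0471). That call sat at the threshold and held in 4 of 16 alternative computations.

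Tbx20, on the minus strand of chromosome 9 (24718138 to 24774303), is required in adult heart muscle for rhythm and calcium handling. It was at 7.66, 12.9 and 8.22 TPM with sham and vehicle, 10.9, 13.3 and 11.8 with sham and prednisone, 11.4, 14.3 and 11.4 with MI and vehicle and 5.48, 3.59 and 7.05 with MI and prednisone. The MI prednisone values were the 3 lowest of the 12. Tbx20 fell by 1.10 with prednisone after infarction (SE 0.225; adjusted p 0.00446) and was 0.33 higher with prednisone in sham hearts (SE 0.225; adjusted p 1).

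Of the MADS-box factors, Mef2a, on the minus strand of chromosome 7 (67231163 to 67372858), is a main MEF2 form of adult heart muscle with a known part in mitochondrial upkeep. It was at 36.1, 39.8 and 37.8 TPM with sham and vehicle, 39.1, 40.1 and 36.5 with sham and prednisone, 34.7, 36.1 and 40.7 with MI and vehicle and 16.2, 13.6 and 21.6 with MI and prednisone. The first 9 libraries spanned 34.7 to 40.7 TPM and none of the last 3 exceeded 21.6. Mef2a fell by 1.10 with prednisone after infarction (SE 0.145; adjusted p 0.000909).

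Mef2c, on the plus strand of chromosome 13 (83504034 to 83667080), is needed for looping of the embryonic heart and formation of the right ventricle. Its level was 16.1, 18.5 and 16.4 TPM with sham and vehicle, 18.3, 17.3 and 19.9 with sham and prednisone, 16.5, 20.3 and 20.7 with MI and vehicle and 7.10, 5.01 and 7.98 with MI and prednisone. Its fall of 1.40 (SE 0.155; adjusted p 0.000547) was the largest of the 10 in infarcted hearts. Mef2c also had the widest range over libraries, 4.14-fold from the lowest to the highest.

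Mef2d, on the plus strand of chromosome 3 (88142372 to 88172086), is known as a mediator of pathological growth in adult heart. It was at 41.9, 49.9 and 41.0 TPM with sham and vehicle, 52.1, 44.8 and 49.1 with sham and prednisone, 41.8, 47.8 and 57.0 with MI and vehicle and 22.4, 22.4 and 31.4 with MI and prednisone. Mef2d fell by 0.92 (SE 0.157; adjusted p 0.00202) with prednisone in infarcted hearts. The 3 MEF2 genes together made 41.0 to 60.9 TPM in MI prednisone hearts and 93.0 to 118.5 TPM in the other 9 libraries.

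Srf, on the minus strand of chromosome 17 (46548329 to 46556175), controls actin cytoskeleton and early response genes with its cofactors myocardin and the MRTF proteins. Its values were 19.2, 24.0 and 25.0 TPM with sham and vehicle, 27.6, 31.8 and 31.1 with sham and prednisone, 23.3, 30.4 and 32.2 with MI and vehicle and 22.3, 20.8 and 26.0 with MI and prednisone. Sham hearts given prednisone were all above sham hearts given vehicle, a difference of 0.40 (SE 0.148; unadjusted p 0.0208, adjusted p 1). In infarcted hearts the groups overlapped and the difference was -0.29 (SE 0.148; adjusted p 0.135).

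The helix-loop-helix factor Hand2, on the plus strand of chromosome 8 (57320983 to 57324633), is essential for the right ventricle and is also made by cardiac fibroblasts. It was at 17.7, 24.3 and 22.9 TPM with sham and vehicle, 24.5, 26.7 and 24.0 with sham and prednisone, 19.7, 29.9 and 23.4 with MI and vehicle and 18.6, 17.8 and 18.5 with MI and prednisone. The MI prednisone hearts were below both the MI vehicle and the sham prednisone hearts, by 0.37 (SE 0.155; adjusted p 0.0778) and 0.43 (SE 0.155; adjusted p 0.0805) on the log2 scale. Neither difference passed.

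The first comparison, infarcted against sham hearts from vehicle-treated mice, asks what the infarct alone did to these factors. None of the 10 was called by limma, against 16% of all genes tested, and none had an unadjusted p under 0.05. No member separated the 3 infarcted from the 3 sham hearts, while 45% of all genes did. The median log2 difference of the 10 was 0.14, that of all genes 0.39, and 7 of 10 values were positive. After median-ratio rescaling, which brought the median of all genes to 0.02, all 10 were negative and none was called, so no direction can be read for Gata4, Nkx2-5, Tbx20, Mef2c, Mef2d, Hand2 or Srf. The value of Tbx5 was negative under every scaling tried: -0.32 as deposited (adjusted p 0.189), -0.71 after rescaling (adjusted p 0.0509) and -0.74 after correction for transcript length (adjusted p 0.0486).

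The comparison of prednisone with vehicle after infarction asks what the drug did in the injured heart. Of the 10 genes 5 fell and none rose, at a background of 37.4% of genes called and 34.9% called lower; the median of the 10 was -0.52 and that of all genes -0.41. The MI prednisone and MI vehicle hearts did not overlap for 6 members, all lower in prednisone (the 5 and Hand2), against 42.6% of genes lower without overlap. The members' counts are to be read against this general excess of lower genes. Beyond the general shift, with median-ratio rescaling, Mef2c fell by 0.98 (adjusted p 0.00318), Mef2a by 0.65 (adjusted p 0.0205) and Mef2d by 0.48 (adjusted p 0.0323), whereas Tbx20 (-0.69, adjusted p 0.0663) and Gata6 (-0.24, adjusted p 0.316) lost the call. Corrected for transcript length, Mef2c (-0.85, adjusted p 0.00743) and Mef2a (-0.47, adjusted p 0.0494) kept it and Mef2d did not (-0.36, adjusted p 0.0768). The other 5 factors were not called as deposited, and Gata4, Tbx5, Hand2 and Srf turned from negative to positive values under both of these computations. The count was also 5 without the MI vehicle mouse that stood apart and with mitochondrial genes, their nuclear copies and globins removed.

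**Figure D2:**
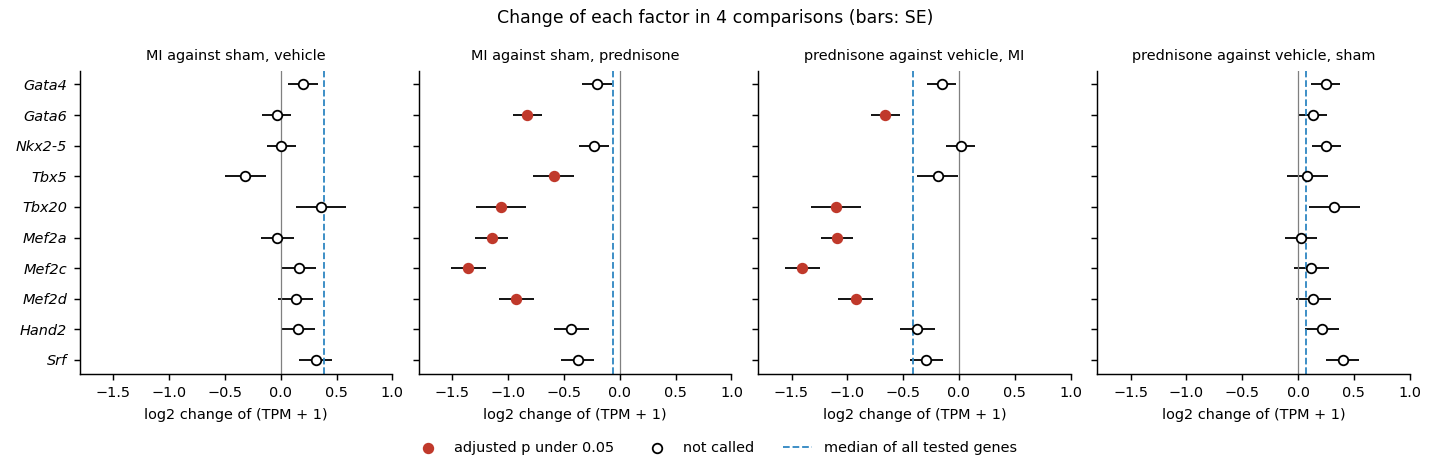
Log2 change of (TPM + 1) of each factor with its SE in the 4 comparisons between groups; filled points passed an adjusted p of 0.05 and the dashed line is the median of all 13158 genes tested. Filled points appear only in the comparisons that involve MI prednisone hearts, 6 against sham prednisone and 5 against MI vehicle.

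In the comparison of infarcted with sham hearts under prednisone, both groups had received the drug. Of the 10 genes 6 fell (Gata6, Tbx5, Tbx20, Mef2a, Mef2c and Mef2d) and none rose, while 16.8% of all genes were called and 14.1% called lower. All but Gata4 separated the groups, 9 lower in infarcted hearts, against 32.2% of genes lower without overlap. The median of the 10 was -0.71, and that of all genes was -0.06, so that rescaling moved these values little. Mef2c fell by 1.36 (SE 0.155; adjusted p 0.00117), Mef2a by 1.15 (adjusted p 0.00127), Tbx20 by 1.06 (adjusted p 0.00925), Mef2d by 0.93 (adjusted p 0.00358) and Gata6 by 0.83 (adjusted p 0.00241). After median-ratio rescaling these 5 were still called, with values between -1.27 for Mef2c and -0.73 for Gata6, and Tbx5 was not (-0.50, adjusted p 0.081). Of the 5, Tbx20 lost the call under the transcript length correction, and Gata6 also did when a replicate block was joined to it. By the most abundant transcript alone, Mef2c (-0.53) and Mef2d (-0.20) were not called. This comparison and the previous one share the MI prednisone mice, so their values are not independent.

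In uninjured hearts prednisone against vehicle gave no call among the members, and 1 of the 10 had an unadjusted p under 0.05 (Srf). Calls were rare among all genes as well (0.114%). All 10 values were positive, from 0.03 for Mef2a to 0.40 for Srf, with a median of 0.18 against 0.07 over all genes. Mef2a turned negative under median-ratio rescaling (-0.06). Tbx5 did so under the length correction, and Gata4 and Mef2d by the most abundant transcript. Gata4, Nkx2-5 and Srf were higher without overlap, 3 of 10 against 15.6% of all genes. Between 3 and 3 mice the smallest two-sided exact permutation p is 0.1.

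The prednisone effect was also compared between infarcted and sham hearts. The interaction of surgery and drug was negative for all 10 and called for 6, at 21.3% of genes called (20.7% lower) and a median of -0.48 over all genes. Its values were -1.52 for Mef2c (SE 0.22; adjusted p 0.00526), -1.43 for Tbx20 (SE 0.318; adjusted p 0.0142), -1.12 for Mef2a (SE 0.205; adjusted p 0.00862), -1.06 for Mef2d (SE 0.221; adjusted p 0.0117), -0.79 for Gata6 (SE 0.182; adjusted p 0.0152) and -0.69 for Srf (SE 0.21; adjusted p 0.039). The interaction of Srf kept its call in 6 of 21 alternatives. With median-ratio rescaling Mef2c alone was called, and with the length correction none was, while Gata4, Nkx2-5 and Tbx5 became positive.

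**Figure D3:**
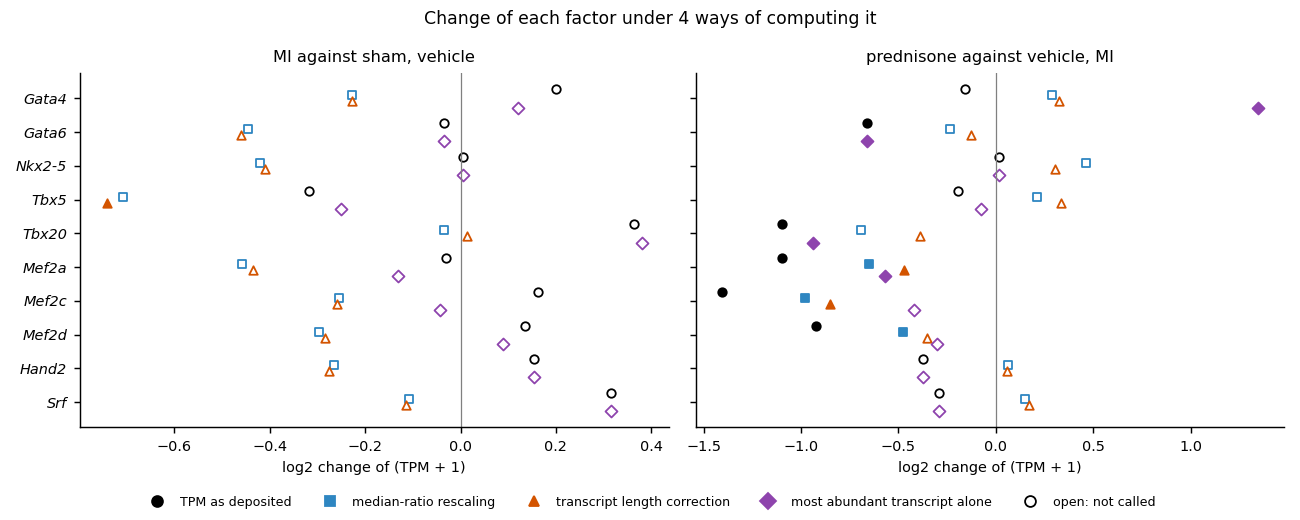
Log2 change of (TPM + 1) of each factor in 2 comparisons under 4 computations: TPM as deposited, median-ratio rescaling, transcript length correction and the most abundant transcript of each gene; filled symbols passed an adjusted p of 0.05. In infarcted hearts Mef2a is filled under all 4. Gata4 lies at -0.16 for the whole gene and at 1.34 for Gata4-203, taken as its most abundant transcript. That choice depended on the MI prednisone hearts, where Gata4-203 averaged 28.4 TPM and Gata4-202 5.90 TPM. In sham vehicle, sham prednisone and MI vehicle hearts Gata4-202 was the higher (14.1, 19.5 and 17.5 TPM against 9.71, 9.77 and 10.8). The value of Gata4-202 in infarcted hearts was -1.48.

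The transcripts of Gata4 did not move together. The table lists 6 of them, of which 5 passed the filter of 1 TPM in 3 libraries. Gata4-201 and Gata4-202 are nearly the same length (3400 and 3374 bases, with 1326 and 1323 coding bases). Gata4-203 is 2407 bases long with 708 coding bases, starts 58085 bases inside the outermost 5′ end of the gene and shares their 3′ end to within 2 bases. Gata4-203 was at 11.1, 9.27 and 8.73 TPM with sham and vehicle, 11.5, 7.32 and 10.5 with sham and prednisone, 11.6, 12.9 and 7.86 with MI and vehicle and 30.0, 26.9 and 28.4 with MI and prednisone. Every MI prednisone heart was above the other 9 by more than their whole range. Over all 30 tested transcripts of the 10 genes, 15 were called with prednisone after infarction, 1 higher and 14 lower (background 33% called, 5.92% higher and 27.1% lower), and 17 with infarction under prednisone, 1 higher and 16 lower (background 22.3%, 6.75% and 15.6%). None was called with infarction under vehicle (background 2.84%) or with prednisone in sham hearts (background 0.054%), and 14 were called for the interaction (background 18.7%). Gata4-203 was the 1 that was higher: it rose by 1.34 with prednisone after infarction (SE 0.198; adjusted p 0.000907 over 27769 transcripts) and by 1.47 with infarction under prednisone (SE 0.198; adjusted p 0.000655).

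The full-length forms went the other way. Gata4-202 was at 15.8, 14.9 and 11.6 TPM with sham and vehicle, 21.3, 16.8 and 20.4 with sham and prednisone, 15.5, 20.0 and 16.9 with MI and vehicle and 4.97, 3.90 and 8.83 with MI and prednisone, a fall of 1.48 against MI vehicle (SE 0.234; adjusted p 0.0013). Gata4-201 fell by 1.44 (SE 0.224; adjusted p 0.0012) from 10.4, 10.5 and 9.98 to 3.91, 2.07 and 3.81 TPM. Both were lower without overlap in MI prednisone hearts. The shorter 5′ form Gata4-204, which ends 42180 bases before the outermost 3′ end, fell by 1.01 (SE 0.3; adjusted p 0.0244), a call kept in 5 of 13 alternatives. The calls on Gata4-201, Gata4-202 and Gata4-203 held in all 13 alternatives tried, among them rescaling and the length correction; for Gata4-203 the value lay between 1.15 and 1.76.

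**Figure D4:**
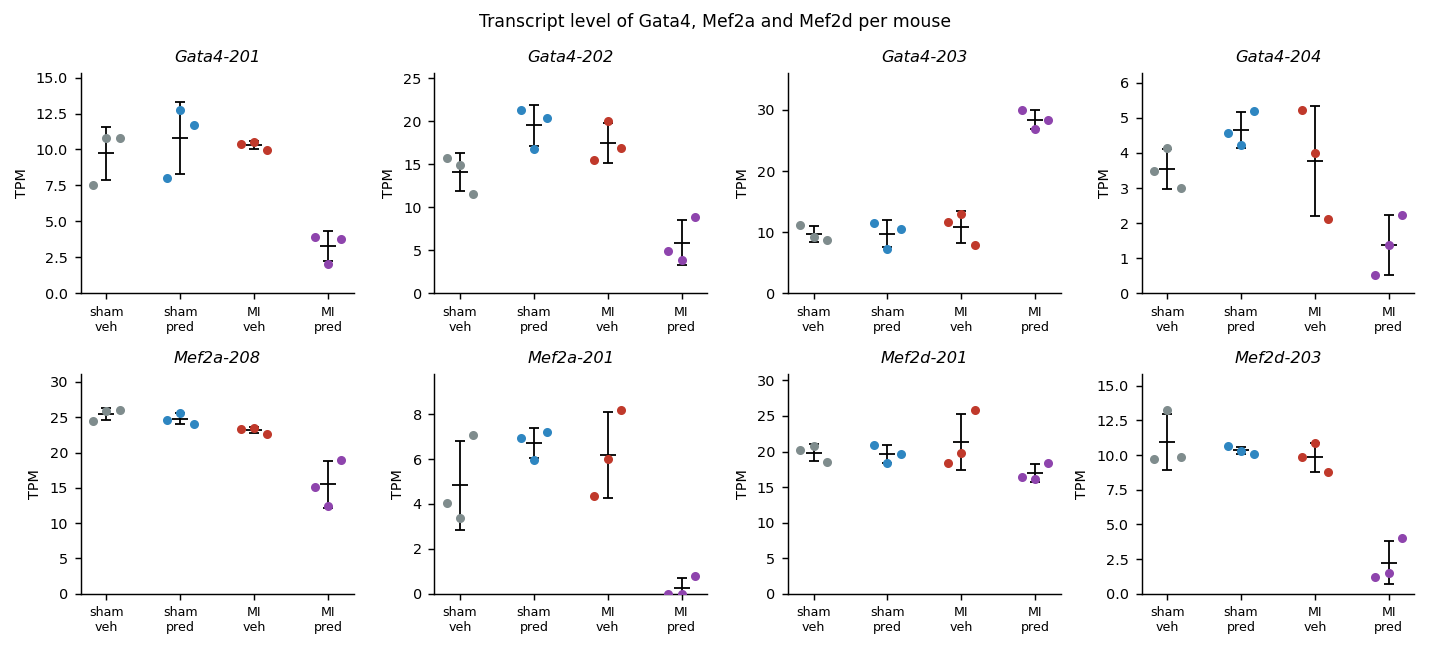
TPM per mouse of 4 Gata4, 2 Mef2a and 2 Mef2d transcripts (linear axes from 0), with the mean and SD of each group of 3. Gata4-203 is at 26.9 to 30.0 TPM in MI prednisone hearts and at 12.9 TPM or less in the other 9, while Gata4-201 and Gata4-202 are lowest there.

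A gene with 1 transcript called higher and another called lower was not rare. In the prednisone comparison after infarction 827 of 6570 genes with at least 2 tested transcripts (12.6%) showed this, and in the infarct comparison under prednisone 708 (10.8%), against 0 for prednisone in sham hearts and 1 (0.0152%) for infarction with vehicle. Among the 6 factors with several tested transcripts, Gata4 was the only one.

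The MEF2 transcripts that fell furthest end before the outermost 3′ end of their gene. Mef2a-201, which ends 3044 bases before it, was at 4.35, 5.99 and 8.17 TPM in MI vehicle hearts and was listed at 0.000147, 0 and 0.781 TPM in MI prednisone hearts. In sham vehicle hearts it was at 4.03, 3.35 and 7.09 TPM and in sham prednisone hearts at 6.95, 5.97 and 7.22 TPM, so that it was lowest in the 3 MI prednisone hearts. Mef2a-208, 5538 bases long with the outermost 3′ end, was at 24.4, 26.0 and 26.0 TPM with sham and vehicle, 24.6, 25.6 and 24.1 with sham and prednisone, 23.3, 23.5 and 22.7 with MI and vehicle and 15.1, 12.4 and 18.9 with MI and prednisone. It fell by 0.57 (SE 0.136; adjusted p 0.00935), which ended under the length correction (0.02, adjusted p 0.94) and under rescaling. Its share of Mef2a TPM was 90.7% ± 2.67 (SD, n = 3) in MI prednisone and 62.7% ± 6.06 in MI vehicle hearts, and that of Mef2a-201 was 1.21% ± 2.09 and 16.4% ± 3.78.

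Mef2d showed the same arrangement. Its longest form, Mef2d-201 (5401 bases), was at 18.4, 19.8 and 25.8 TPM in MI vehicle and 16.4, 16.2 and 18.4 TPM in MI prednisone hearts and was not called (-0.30, SE 0.136; adjusted p 0.108). Mef2d-203, which ends 3431 bases earlier, was at 9.87, 10.9 and 8.78 TPM in the former and 1.22, 1.53 and 3.99 TPM in the latter, a fall of 1.83 (SE 0.26; adjusted p 0.000746). Mef2d-202, with the same end, fell by 1.58 (SE 0.221; adjusted p 0.000669). Mef2d-201 made 68.0% ± 7.98 of Mef2d TPM in MI prednisone and 43.6% ± 1.96 in MI vehicle hearts.

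For Mef2c, 7 of 31 listed transcripts were tested. The 2 long forms that reach its outermost 3′ end, Mef2c-212 and Mef2c-201, were not called (-0.42, adjusted p 0.147, and -0.25, adjusted p 0.518), whereas Mef2c-217 fell by 1.46 (SE 0.295; adjusted p 0.00421) and Mef2c-219 by 1.49 (SE 0.392; adjusted p 0.0147). The other early-ending forms, Mef2c-230 (-1.09, adjusted p 0.0503), Mef2c-205 (-0.97, adjusted p 0.0614) and Mef2c-215 (0.07), were not called. Mef2c-212 made 54.5% ± 10.5 of Mef2c TPM in MI prednisone hearts and 26.9% ± 6.87 in MI vehicle hearts. Tbx20-201, the 9091-base form, made 97.1% ± 3.77 of Tbx20 TPM in MI prednisone hearts and itself fell by 0.94 (SE 0.218; adjusted p 0.00835). Tbx5-201, the long Tbx5 form, was not called (-0.08, SE 0.164; adjusted p 0.744).

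**Figure D5:**
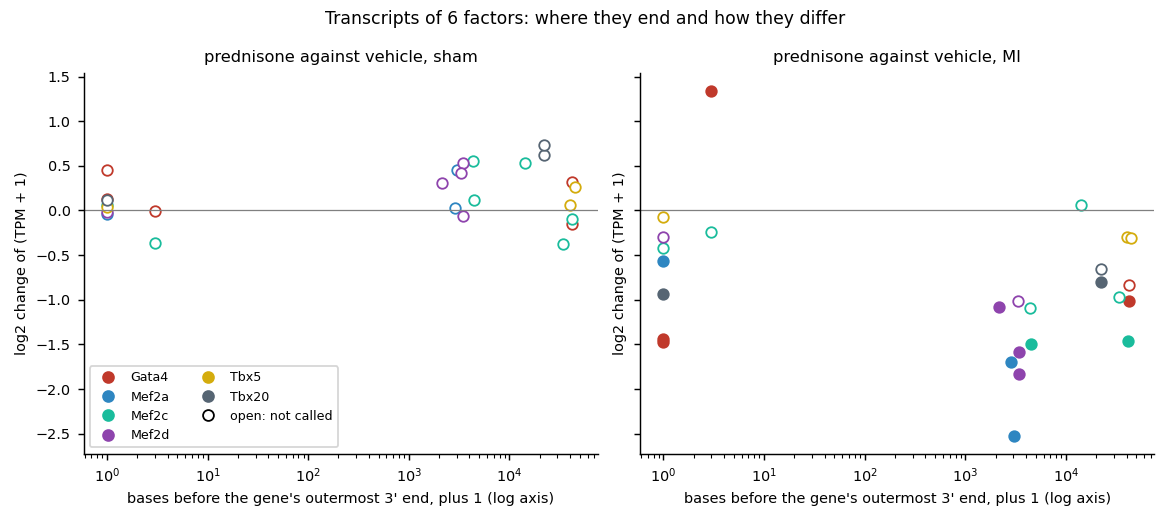
Log2 change of (TPM + 1) with prednisone for the tested transcripts of the 6 factors with several, in sham and in infarcted hearts, against the distance of each transcript's end from the outermost 3′ end of its gene (log axis, bases plus 1); filled points passed an adjusted p of 0.05. In infarcted hearts the 17 transcripts that end at least 1000 bases early have a median of -1.02 and the 9 that end within 50 bases a median of -0.42; Gata4-203 is the point at 1.34.

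Over these 6 genes, 9 of the 17 transcripts ending at least 1000 bases early fell with prednisone after infarction and none rose, and of the 9 ending within 50 bases 4 fell and 1 rose. In sham hearts the medians were 0.31 and 0.04 with no call. All tested transcripts of genes with several showed the same order in infarcted hearts: the median was -0.50 over 8698 early-ending and -0.27 over 9155 transcripts at the outermost end, while 30.3% and 25% of them were called lower and 3.58% and 9.08% higher. In sham hearts those medians were 0.10 and 0.05, and for infarction with vehicle 0.24 and 0.29. Where reads fall along a transcript was not measured here, and the part of this pattern in the values of Gata4, Mef2a, Mef2c and Mef2d was not tested. By the most abundant transcript alone, Mef2a kept its fall and Mef2c and Mef2d lost theirs.

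The levels of some members could include reads of a neighbour. Annotated genes on the opposite strand overlap Hand2 (Hand2os1), Mef2a (Lysmd4), the 3′ end of Mef2d (1700113A16Rik), the start of Gata6 (1010001N08Rik) and Srf (Gm26904). The library kit keeps strand, per the labels, and whether the quantification used it is not given in the sources used here. Gata6 and Srf have 1 row each, whose transcript version differs from the annotation used, so no transcript positions are given for them.

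A list of 37 further heart regulators had 32 tested members, and 18 of them fell with prednisone after infarction, with none higher (background 34.9% lower; list median -0.54, all genes -0.41). Among the largest falls were those of Tead1, the DNA-binding partner of YAP (-1.38, SE 0.23; adjusted p 0.00195), Myocd, the muscle cofactor of SRF (-1.34, SE 0.211; adjusted p 0.00156), and Hdac4, a class IIa deacetylase that represses MEF2 (-1.19, SE 0.161; adjusted p 0.000964). Hdac9, a further MEF2 repressor, fell by 0.93 (adjusted p 0.00199), Zfpm2, the partner of GATA4 also called FOG2, by 0.90 (adjusted p 0.00608), and Mrtfb, listed as Mkl2, by 0.57 (adjusted p 0.0162). Under median-ratio rescaling the list had 10 calls, 6 lower and 4 higher, and under the length correction 6, 2 lower and 4 higher. Hdac4 kept its fall in 15 of 15 alternatives and Myocd in 14, whereas Mrtfb turned positive in 2.

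In the same list infarction with vehicle gave 4 calls in 32 (background 16%), 3 higher and 1 lower: among the former, Ankrd1, a stress-induced cofactor of the sarcomere and nucleus, rose by 1.82 (SE 0.212; adjusted p 0.005) and Nfatc4 by 0.61, and Hopx, a homeodomain-only partner of SRF, fell by 0.51. After rescaling the list had 2 calls, 1 in each direction. Infarction under prednisone gave 12 calls (background 16.8%), of which Ankrd1 was higher (1.08) and 11 were lower, among them Myocd (-1.70), Tead1 (-1.48), Hdac9 (-1.35) and Prox1 (-1.34). In sham hearts prednisone gave none (background 0.114%). The interaction was called for 10 (background 21.3%), all lower, and for 2 after rescaling.

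The levels of known targets did not run in one direction. Of 14 targets of GATA4, NKX2-5 and TBX5, infarction with vehicle raised Nppb (2.32, SE 0.295; adjusted p 0.00505) and Nppa (1.68, SE 0.327; adjusted p 0.0136), the natriuretic peptide genes of stressed heart muscle, and lowered Myh6 (-0.61), the adult myosin heavy chain, and Tnni3 (-0.52), cardiac troponin I. This was 4 calls in 14 with or without rescaling, at a background of 16%. With prednisone after infarction 4 of the 14 rose, led by Tnni3 (0.73, SE 0.137; adjusted p 0.00307); the others were Myl2 (0.59), Tnnc1 (0.40) and Myl3 (0.33), troponin C and myosin light chain genes named after their values were seen. In that comparison 3 fell, among them Slc8a1, the sodium-calcium exchanger (-2.19, SE 0.342; adjusted p 0.00151), and Atp2a2, the calcium pump SERCA2 (-0.59), whose call held in 4 of 15 alternatives. The background of this comparison was 37.4% called and 34.9% called lower. Rescaled, 5 were higher and Slc8a1 was lower.

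Infarction under prednisone lowered 5 of these 14 targets, led by Slc8a1 (-2.33, SE 0.342; adjusted p 0.00213) and Ryr2, the calcium release channel (-1.44, SE 0.213; adjusted p 0.00215), and raised Nppb (1.90) and Nppa (1.46). Of all genes, 16.8% were called in this comparison and 14.1% called lower. Prednisone in sham hearts gave no call in any of the 3 target lists (background 0.114%).

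Of 9 MEF2 targets, 5 were called with prednisone after infarction (background 37.4% called and 34.9% lower): 2 rose, among them Pgam2 (0.46), an enzyme of glycolysis, and 3 fell: Ppargc1a, the mitochondrial coactivator PGC-1α (-0.98, SE 0.186; adjusted p 0.00338), Hdac9 (-0.93) and Jun (-0.63). Rescaled, 4 were called and all were higher. In vehicle-treated mice infarction raised Xirp2 (0.69) and Jun (0.62), 2 calls in 9 (background 16%), and neither held after rescaling. With infarction under prednisone 3 of the 9 were called, 2 lower and 1 higher (background 16.8% called and 14.1% lower). Ppargc1a was among the lower (-1.67, SE 0.186, adjusted p 0.00116).

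Of 12 SRF targets, infarction with vehicle raised 4 (16% of all genes were called in either direction): Acta1, the fetal skeletal actin (2.02, SE 0.284; adjusted p 0.00526), Tagln (1.22), Acta2, smooth muscle actin (0.72), and Fhl1 (0.61). Prednisone after infarction lowered 4 (background 34.9% called lower): Vcl, which anchors actin at cell contacts (-1.08, SE 0.175; adjusted p 0.0017), Tagln (-0.83), Fhl1 (-0.78) and Acta2 (-0.62). After rescaling, 1 was called in the first of these comparisons and 2 in the second, 1 in each direction. Under prednisone infarction raised Acta1 (1.70) and lowered Vcl (-0.98), 2 calls in 12 at a background of 16.8%.

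Markers of other cells also differed between groups, in patterns that varied by list. All 7 fibroblast markers rose with infarction in vehicle-treated mice and fell with prednisone after infarction; their sum was 379 to 512 TPM in sham vehicle, 432 to 516 in sham prednisone, 890 to 1150 in MI vehicle and 305 to 516 in MI prednisone hearts. All 6 macrophage markers rose with infarction in vehicle-treated mice, to a sum of 516 to 1206 TPM from 222 to 327, and 4 fell with prednisone, to 254 to 483. With infarction under prednisone no fibroblast or macrophage marker was called. In that comparison 3 of 7 endothelial markers were lower and 1 was higher, at a background of 16.8% called and 14.1% called lower. After median-ratio rescaling 3 of 7 fibroblast and 4 of 6 macrophage markers rose with infarction in vehicle-treated mice, and 6 and 3 of them fell with prednisone after infarction. Of the 5 atrial markers, 3 rose with prednisone after infarction: Myl7 (2.04), Sln (2.03) and Myl4 (1.99). Of 7 endothelial markers, 5 rose with infarction in vehicle-treated mice, and with prednisone after infarction 3 fell and 1 rose. Their sum was 240 to 266 TPM in sham vehicle, 306 to 397 in MI vehicle and 289 to 395 in MI prednisone hearts. Of 4 smooth muscle markers, 2 rose with infarction in vehicle-treated mice and 2 fell with prednisone after infarction, with sums of 73.5 to 75.9 TPM in sham vehicle, 95.3 to 173 in MI vehicle and 76.5 to 91.3 in MI prednisone hearts. Of the cardiomyocyte markers, 3 of 10 rose with prednisone after infarction and none fell. Infarction lowered 3 of these 10 in vehicle-treated and 3 in prednisone-treated mice. Lymphocyte, adipocyte and red blood cell markers had no call in any comparison, and pericyte markers had at most 1 of 4. Fewer cells of a type and less RNA per cell cannot be told apart in bulk tissue, and the part of cell composition in the values of the 10 factors was not tested.

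Genes with the most similar profile were found by the root mean square difference of centred log2(TPM + 1) values over 12 libraries, among the 8116 genes averaging 5 TPM or more. For Gata6 they were March6 (0.0543) and 5730455P16Rik (0.069), for Mef2d Ablim1 (0.0681) and Rab22a (0.0715), for Mef2a Neo1 (0.085) and Mbnl2 (0.0909), and for Mef2c Sec23a (0.0896) and Limch1 (0.113). Srf lay closest to Slco3a1 (0.0812) and Urgcp (0.0851), Nkx2-5 to Plpp7 (0.0912) and Mlip (0.098), Gata4 to Atp5s (0.0928) and Trim72 (0.108), and Hand2 to Stradb (0.107) and Nacc2 (0.116). The closest neighbours of Tbx20 were Slain2 (0.132) and Pja2 (0.161), and those of Tbx5 were Aldh4a1 (0.136) and Nqo2 (0.14). Among the members themselves the closest pairs were Hand2 and Srf (0.144), Gata4 and Nkx2-5 (0.148) and Mef2a and Mef2c (0.151). For Mef2d the closest member was Mef2a as well (0.156).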

How the data were processed

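Stranded mRNA libraries (TruSeq) were made from column-purified total RNA of 12 hearts, per the labels' protocols. The authors deposited TPM values in 1 table of 105129 transcript rows; Trimmomatic, HISAT2, kallisto and mm10 are named in the submitters' processing notes without versions or roles. TPM hold no read depth, and counting precision is unknown. Rows were summed to 33641 symbols, and 13158 genes that reached 1 TPM in 3 or more samples were kept. The test was limma 3.58.1 (R 4.3.3) on log2(TPM + 1), with eBayes and a trend, 4 group means and all 12 samples, with p-values adjusted by Benjamini-Hochberg over all genes or transcripts and called at 0.05; this scale understates changes of low genes. The code was tested on simulated data. Of the row identifiers 94.7% matched GENCODE M21. Alternatives were median-ratio rescaling, no low-value filter, no trend, a pseudocount of 0.1, removal of 31 mitochondrial, nuclear-copy and globin genes, a loess correction (span 0.5) for transcript length, a replicate block, fits of the compared groups alone, leaving out each mouse, and the most abundant transcript; 4 of them were added for transcripts after seeing the data. Named genes are the 10 members, their tested transcripts, called members of a list of 37 heart regulators, up to 4 called targets per list with the largest differences, and the 2 nearest genes by profile. Members and lists were chosen with earlier results of these data known.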

Additional observations from a re-analysis of the deposited data

Results flagged for a closer look

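The effect of prednisone differed between infarcted and sham hearts, by the interaction term of limma's fit, for 6 of the 10 factors and for 12 of the transcripts of 5 factors with several, where 21.3% of all genes and 18.7% of all transcripts were called. With median-ratio rescaling Mef2c alone of the 6 genes kept the call, and with the transcript length correction none did. On the log2(TPM + 1) scale the difference (infarcted minus sham) was -1.52 for Mef2c, -1.43 for Tbx20, -1.12 for Mef2a, -1.06 for Mef2d, -0.79 for Gata6 and -0.69 for Srf. Among Gata4 transcripts it was 1.35 for Gata4-203, against -1.93 for Gata4-202, -1.57 for Gata4-201 and -1.34 for Gata4-204. The Gata4-203 difference kept its call in 18 of 18 alternatives (1.16 to 1.85), and that of Gata4-204, with an adjusted p of 0.0494, kept it in 2 of 18.

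For the other transcripts the difference was -2.98 for Mef2a-201, -1.72 for Mef2a-203, -2.12 for Mef2d-202, -1.77 for Mef2d-203, -1.40 for Mef2d-204, -1.36 for Mef2c-217, -1.06 for Tbx20-201 and -1.41 for Tbx20-202. Gata4-202, Mef2a-201 and Mef2d-202 also kept their calls in 18 of 18 alternatives, with adjusted p at most 0.0367, 0.00856 and 0.0137.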

How the results depend on the processing

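No called value of the 10 genes changed sign under any alternative, and the sign changes below are among values that did not pass the test. With infarction under prednisone 79 recomputed values of called members kept the call and 17 lost it, with prednisone after infarction 68 kept and 12 lost it, and for the interaction 93 kept and 33 lost it. Median-ratio rescaling left 3 calls with prednisone after infarction and 1 for the interaction, and the length correction left 2 and 0 and added 1 with infarction under vehicle (Tbx5). Joined to the replicate block, the length correction left 3 calls with infarction under prednisone, 1 with prednisone after infarction and 0 for the interaction. The replicate block alone removed 1 call from the gene counts, that of Tbx5 with infarction under prednisone (5 of 6). Same-numbered mice are different animals, their deviations correlated with a mean r of -0.37 to 0.00 by comparison, and at most 1 of 3 matched its own number best. Leaving out each mouse in turn gave 0 to 1 calls with infarction under vehicle (1, Srf, without MI vehicle 1), 5 to 6 under prednisone, 5 to 7 with prednisone after infarction (7 without MI vehicle 1), 0 in sham hearts and 5 to 7 for the interaction; without MI vehicle 3 the median of all genes moved from 0.39 to 0.193 with infarction under vehicle and from -0.41 to -0.221 with prednisone after infarction, and the members called were 0, 5 and, for the interaction, 6. Of the transcripts, 14 were called for the interaction, against 5 with rescaling, 8 without a low-value filter, 4 with the length correction and 8 to 15 without 1 mouse; with prednisone after infarction 15 were called, and 8 when only those 2 groups were fitted.

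Rescaling gave, with infarction under vehicle, Gata4 -0.23, Hand2 -0.27, Mef2c -0.25, Mef2d -0.30, Nkx2-5 -0.42, Srf -0.11 and Tbx20 -0.034; with prednisone after infarction Gata4 0.29, Hand2 0.063, Srf 0.15 and Tbx5 0.21; in sham hearts Mef2a -0.062; and for the interaction Gata4 0.13, Nkx2-5 0.29 and Tbx5 0.21. The length correction, with or without the replicate block, gave in the same order Gata4 -0.23, Hand2 -0.28, Mef2c -0.26, Mef2d -0.28, Nkx2-5 -0.41 and Srf -0.11, then Gata4 0.33, Hand2 0.057, Srf 0.17 and Tbx5 0.33, then Mef2a -0.077 and Tbx5 -0.00060, then Gata4 0.15, Nkx2-5 0.083 and Tbx5 0.33. Removal of mitochondrial, nuclear-copy and globin genes gave, with infarction under vehicle, Gata4 -0.035, Hand2 -0.078, Mef2c -0.068, Mef2d -0.10 and Nkx2-5 -0.23, and in sham hearts Mef2a -0.050. The most abundant transcript gave Gata4 1.47 with infarction under prednisone, 1.34 with prednisone after infarction, -0.0065 in sham hearts and 1.35 for the interaction. For Gata4 that transcript was Gata4-203, which averaged above Gata4-202 only in MI prednisone hearts, so its choice depended on that group. The same alternative gave Mef2c -0.042 with infarction under vehicle, and in sham hearts Mef2a -0.038 and Mef2d -0.014. Without 1 mouse, Nkx2-5 ranged from -0.14 to 0.12, Mef2a from -0.10 to 0.017 and Gata6 from -0.095 to 0.030 with infarction under vehicle, Nkx2-5 from -0.10 to 0.16 with prednisone after infarction, and Mef2a from -0.0078 to 0.063 and Tbx5 from -0.029 to 0.18 in sham hearts. The cause of these differences was not tested. TPM carry no depth, so the counting error of low values is unknown.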
